A study of Mus musculus with 4 samples.

Results

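The enzymes described here belong to the 8 gene families that carry out most of the chemical conversion of drugs, steroids, aldehydes and other small lipophilic molecules: the cytochromes P450 (Cyp), aldehyde oxidases (Aox), flavin monooxygenases (Fmo), aldehyde dehydrogenases (Aldh), aldo-keto reductases (Akr), carboxylesterases (Ces), UDP-glucuronosyltransferases (Ugt) and sulfotransferases (Sult). Members were chosen by gene symbol, as every gene of the deposited table whose symbol starts with 1 of these family names followed by a digit (and, for P450 genes, a letter). The 3 pseudogene segments with names ending in -ps were left out, and Cyp51, which has no subfamily letter, stays out too. This gave 89 of 24689 genes: 31 Cyp, 18 Aldh, 11 Akr, 10 Ces, 9 Ugt, 4 Aox, 4 Sult and 2 Fmo.

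RNA was sequenced from HT-22 cells, an immortalized mouse line labelled as hippocampal neurons, at passages 21 to 24. The control group holds 2 libraries from cells that the labels call uninduced in one field and WT in another. The other group holds 2 libraries from cells induced for Pja2, an E3 ubiquitin ligase, with titles that read Pja2-pb, a tag the labels leave unexplained. How Pja2 was induced, whether both groups came from 1 line or clone, and whether replicates were separate cultures is not stated in the labels, so p-values measure only the spread between these libraries, which may be technical.

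In textbook accounts, phase 1 enzymes expose or add a reactive group. P450s and flavin monooxygenases insert oxygen, and aldehyde oxidases and aldehyde dehydrogenases oxidize aldehydes, the oxidases also nitrogen rings. Aldo-keto reductases reduce carbonyls, and carboxylesterases cut esters. Phase 2 enzymes then attach glucuronic acid or sulfate, which makes the product easier to export. These families are best known from liver, gut and steroid-making glands. In the brain some members act on retinoids, steroids, cholesterol and the aldehydes of lipid peroxidation and of neurotransmitter breakdown.

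Read totals over genes were 25787452 and 31010351 (controls) and 30080376 and 35262653 (induced), and 20494 to 21289 genes had a read in each. Values are normalized reads, which are reads per gene scaled between libraries by the authors, and CPM are reads scaled by the library's total, where 1 CPM stood for 25.8 to 35.3 reads. Pja2 had 6167 and 5881 normalized reads in the controls against 54830 and 54244 in the induced cells, 9.05-fold higher on the means, the direction the labels give. The 9 neuron markers in the table of 15 listed summed to 75.5 to 97.3 CPM, and only Dlg4, Camk2a and Tubb3 reached a mean of 1 CPM. The 8 fibroblast markers summed to 11580 and 10020 CPM in the controls against 9771 and 9791 in the induced cells. Of the 7 tested, 2 fell, Dcn and Col3a1 (28.6%, against 1.34% of all tested genes). Hepatocyte markers (2 of 10 in the table) summed to 2.48 and 2.68 CPM in the controls against 4.02 and 5.39 in the induced cells, steroidogenic markers (3 of 7) to 2.68 and 2.74 against 1.66 and 1.59, and enterocyte markers (1 of 6) to between 0 and 0.322. The defining hepatocyte genes Alb, Ttr and Hnf4a and the steroidogenic genes Nr5a1 and Cyp11a1 have no row in the deposited table. All 24689 rows of that table hold a read in some library, so genes without reads may have been left out. Whether these genes had no reads or were not counted is not stated. The part of any marker group in the enzyme results was not tested.

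Of the 89 enzyme genes, 47 reached a mean of 1 CPM over the 4 libraries and were tested, and 42 did not. Differences were tested with limma over all 13276 genes past that filter, with Benjamini-Hochberg adjustment over all of them and a threshold of 0.05. The log2 fold change is induced minus control on the log2(normalized reads + 1) scale. Among the 47, 7 genes rose (14.9%) and 4 fell (8.51%), where 2.08% of all tested genes rose and 1.34% fell, 3.42% in all. The rising genes were Aldh3a1, Akr1b3, Akr1c13, Ces2g and the glucuronosyltransferase genes Ugt1a6a, Ugt1a6b and Ugt1a7c. These Ugt1a genes share exons, so they are not independent in this or any later count of members. The falling genes were Aox3, Cyp3a41a, Cyp2b13 and Aldh1l2. The median log2 fold change of the 47 was 0.02, against 0.00 over all tested genes, and 24 lay above 0 and 23 below. In bulk RNA, fewer cells of a kind and less RNA per cell cannot be told apart, and this holds for every difference given here.

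Both induced libraries lay on the same side of both controls for 34 of the 47 members (72.3%), 20 higher and 14 lower, against 51.3% of all tested genes, 26.2% higher and 25.1% lower. The filter admitted 6 members that were under 1 CPM in 1 of the groups: Aox3, Cyp3a41a, Cyp2b13, Ces2g, Aldh1l1 and Cyp2s1. Of the 41 members at 1 CPM or more in both groups, 6 rose, 1 fell and 34 did not pass. The share called among all genes held to the same rule was 2.05% higher and 1.22% lower. Summed over the 89 genes, the families held 2373 and 2353 CPM in the controls against 2425 and 2438 CPM in the induced cells. Their total thus moved little while single members moved by far more. Without Aox3 the sums were 2251 and 2250 CPM in the controls against 2425 and 2437 CPM in the induced cells.

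**Figure D1:**
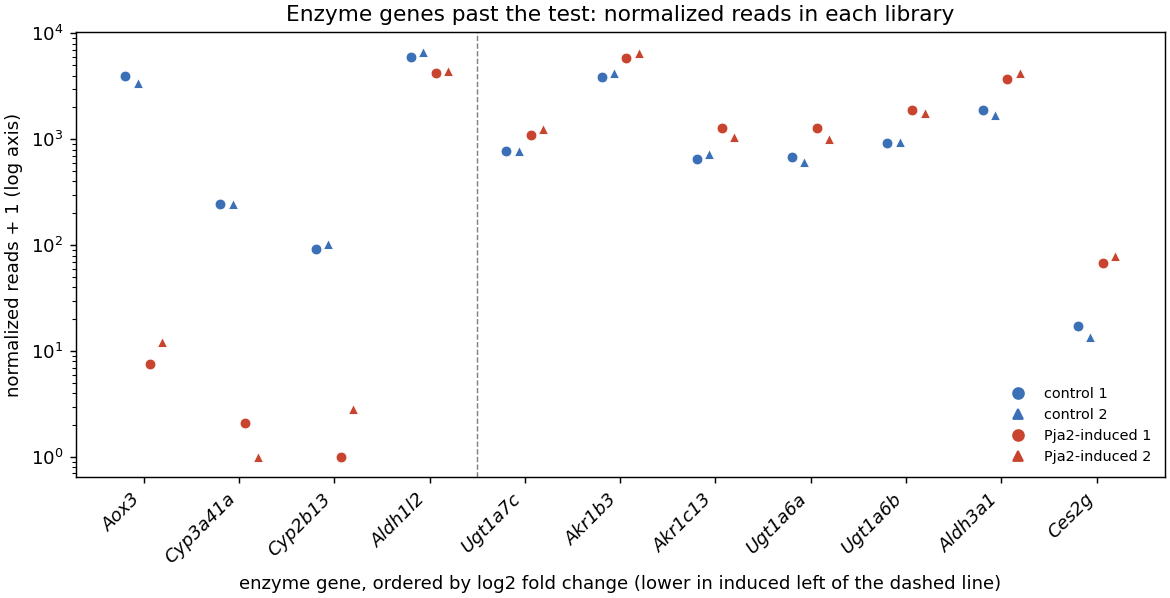
Normalized reads plus 1 (log axis) in each of the 4 libraries for the 11 enzyme genes past the threshold, ordered by log2 fold change; each point is 1 library, blue for control and red for induced, with circles for replicate 1 and triangles for replicate 2. Aox3 dropped from 3952 and 3383 normalized reads to 6.52 and 11.1, and the groups are apart for every gene shown, which the test selected.

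Aldehyde oxidases showed the largest difference. They are molybdenum-containing cytosolic enzymes that oxidize aldehydes and nitrogen heterocycles, and mice carry a cluster of 4 such genes, Aox1, Aox3, Aox4 and Aox2, on chromosome 1. Aox3 (ENSMUSG00000064294) had 3952 and 3383 normalized reads in the controls against 6.52 and 11.1 in the induced cells, from 3143 and 3212 reads against 6 and 12. Both controls were high and both induced libraries were near 0, with no overlap. The mean fell from 3668 ± 403 to 8.83 ± 3.26 (SD, n = 2 per group), and the log2 fold change was -8.58 (SE 0.26, limma adjusted p = 0.000423).

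Aox1, which stands directly before Aox3 in the cluster, had 868 and 758 normalized reads in the controls against 968 and 1013 in the induced cells. The induced libraries were the higher ones, but the difference did not pass the test (log2 fold change 0.29, SE 0.10, limma adjusted p = 0.218). Aox4 had 2 and 0 reads in the controls against 0 and 3 in the induced cells, and Aox2 had 7 reads in 1 induced library and 0 in the other three. The summed level of the 4 genes went from 149 and 127 CPM to 30.0 and 31.4 CPM, and almost all that was left was Aox1. The nearest tested genes outside the cluster did not pass either: Sgol2a and Kctd18 on one side had log2 fold changes of 0.05 and 0.09, and Bzw1 on the other 0.20 (limma adjusted p = 0.756, 0.674 and 0.164).

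The starts of these neighbours are shown, since Aox3 fell and Aox1 did not pass the test, from the RefSeq promoter table (build GRCm38.p6, both on the plus strand): 250 bases before to 50 bases after the start of Aox1, chr1:58029719-58030018, and of Aox3, chr1:58112886-58113185. Capitals mark CCGCCC, the GC box. Aox1 holds it at 196 and at 27 bases before the start, and Aox3 does not hold it in this window. Aligned end to end with gaps, the windows are identical in 175 of 346 columns (50.6%). No unrelated promoters were aligned, so this share is not read as likeness. Any part of these letters in the difference between the genes was not tested. The ratio of observed to expected CpG was 0.464 for Aox3 and 0.319 for Aox1, against a median of 0.384 over all 32851 promoters of the table.
Aox1: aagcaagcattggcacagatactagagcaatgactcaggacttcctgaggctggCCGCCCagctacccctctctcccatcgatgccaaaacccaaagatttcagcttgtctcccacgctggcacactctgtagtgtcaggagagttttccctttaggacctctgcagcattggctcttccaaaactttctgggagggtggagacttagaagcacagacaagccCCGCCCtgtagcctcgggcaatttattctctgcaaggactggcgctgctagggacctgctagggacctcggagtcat
Aox3: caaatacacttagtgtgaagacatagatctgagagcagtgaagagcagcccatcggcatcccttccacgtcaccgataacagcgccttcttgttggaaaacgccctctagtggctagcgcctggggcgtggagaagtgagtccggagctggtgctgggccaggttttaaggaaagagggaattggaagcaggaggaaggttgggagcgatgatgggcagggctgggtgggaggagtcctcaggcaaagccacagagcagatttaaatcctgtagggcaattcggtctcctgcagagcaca

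Of 31 P450 genes 16 were tested, 0 rose, 2 fell and 14 did not pass, and their median log2 fold change was -0.01. Both that fell belong to subfamilies known for drug and steroid hydroxylation in liver. Cyp3a41a (ENSMUSG00000075551) had 244 and 245 normalized reads in the controls against 1.09 and 0 in the induced cells, from 194 and 233 reads against 1 and 0. Both controls carried the gene at the same level and the induced libraries held a single read. With so few reads the ratio of control to induced is known only within 87.3 to 19357 (exact 95% interval, counting error only), and the log2 fold change was -7.41 (SE 0.51, limma adjusted p = 0.00521). The size of the Cyp3a41a change depends on the 1 added before the log2. It was -5.50 with a pseudocount of 5 and -8.15 with voom. Of the 50-base stretches of its annotated transcripts, 98.6% also occur in other genes, mainly Cyp3a41b, Cyp3a44 and Cyp3a11, so the reads counted here may come from any of these near copies.

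Cyp2b13 (ENSMUSG00000040583), a P450 of the drug-inducible 2B subfamily, had 90.5 and 101 normalized reads in the controls against 0 and 1.85 in the induced cells, from 72 and 96 reads against 0 and 2. Again both controls were high and the induced libraries were at or near 0. The exact 95% interval of the ratio ran from 26.2 to 801, and the log2 fold change was -5.84 (SE 0.65, limma adjusted p = 0.0158). For Cyp2b13 too the size depends on the added 1, with -4.10 for a pseudocount of 5 and -6.43 with voom. The call ended when either control library was left out (adjusted p up to 0.0664), and 27.3% of its 50-base stretches are shared, mainly with Cyp2b10 and Cyp2b9. Its neighbour Cyp2s1, which acts on retinoids among other substrates, had 27.7 and 32.7 against 33.7 and 42.7 and did not pass (log2 fold change 0.33, adjusted p = 0.631).

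The start of Cyp3a41a is shown because its promoter alone among those of the 3 falling genes with an entry in the table holds the TATA motif, TATAAA, in capitals 122 bases before the start. The window is chr5:145720087-145720386 on the minus strand of GRCm38.p6, written in the gene's own direction. Its CpG ratio was 0.132 and that of the Cyp2b13 window 0.101.
Cyp3a41a: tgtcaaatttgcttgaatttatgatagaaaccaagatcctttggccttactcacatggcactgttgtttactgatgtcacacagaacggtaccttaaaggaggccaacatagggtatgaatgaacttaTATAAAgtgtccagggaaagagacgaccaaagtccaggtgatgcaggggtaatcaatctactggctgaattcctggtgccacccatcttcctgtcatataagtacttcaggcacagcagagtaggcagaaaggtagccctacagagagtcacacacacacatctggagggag

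The P450 genes with the most reads did not pass the test. Cyp1b1, which oxidizes polycyclic hydrocarbons, estradiol and retinol, had 7921 and 6938 normalized reads in the controls against 9668 and 9789 in the induced cells. The groups did not overlap, yet the log2 fold change of 0.39 (SE 0.08) had a limma adjusted p of 0.0644, and it passed only without control replicate 1 (0.0399). Cyp2c55, an arachidonic acid hydroxylase, had 1099 and 1144 against 1658 and 1464 (adjusted p = 0.0598). Cyp2d22, a relative of the human drug-metabolizing CYP2D6, had 340 and 332 against 225 and 234, the lower values being those of the induced cells (log2 fold change -0.55, adjusted p = 0.0912; named after its values were seen). Cyp20a1, an orphan P450, and Cyp39a1, which hydroxylates oxysterols, had log2 differences of -0.12 and 0.03 (adjusted p = 0.532 and 0.894).

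Of the P450s of retinoic acid and cholesterol breakdown, Cyp26b1, Cyp7a1 and Cyp46a1 overlapped between groups and Cyp26a1 (named after its values were seen) had 3 reads in 1 control and 0 elsewhere. Cyp26b1, which clears retinoic acid, had 244 and 195 normalized reads in the controls against 144 and 224 in the induced cells (limma adjusted p = 0.60). Cyp7a1, the rate-limiting enzyme of the classic bile acid pathway, had 200 and 187 against 194 and 205 (adjusted p = 0.905). Cyp46a1, the cholesterol 24-hydroxylase that neurons use to export cholesterol, had 165 and 117 against 95.7 and 147 (adjusted p = 0.714; named after its values were seen). Cyp27b1, the vitamin D activating hydroxylase, was below the filter with at most 16.9 normalized reads.

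Among the 15 untested P450 genes, Cyp4f14, a leukotriene and fatty acid hydroxylase, had 0 reads in both controls and 15 and 12 reads in the induced cells, 16.3 and 11.1 normalized reads. With the controls set to 3 reads per library, a floor chosen for a count of 0, it was 3.96-fold higher. This value carries no counting error and is not a strict limit. When all genes were tested without the filter it did not pass (limma adjusted p = 0.077). Cyp3a57, the nearest protein-coding gene of the table to Cyp3a41a, named after its values were seen, had 0 and 3.16 normalized reads in the controls against 33.7 and 25.04 in the induced cells. It did not pass without the filter (adjusted p = 0.135), and its ratio of control to induced lay within 0.012 to 0.182 (exact 95% interval, counting error only). The other 13 had at most 44.6 normalized reads in any library.

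Neither flavin monooxygenase gene was tested. Fmo5 had 18.5 to 28.9 normalized reads per library and Fmo1 1.09 to 5.56.

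Of 18 aldehyde dehydrogenase genes 13 were tested, 1 rose, 1 fell and 11 did not pass, with a median log2 fold change of -0.10. Aldh3a1 (ENSMUSG00000019102), a cytosolic enzyme that detoxifies aldehydes of lipid peroxidation and is a classic dioxin-responsive gene in liver, had 1911 and 1684 normalized reads in the controls against 3696 and 4252 in the induced cells. Both induced libraries lay far above both controls. The mean rose 2.21-fold, from 1798 ± 161 to 3974 ± 393, with a log2 fold change of 1.14 (SE 0.10, limma adjusted p = 0.00908). Aldh3a2, the fatty aldehyde dehydrogenase whose gene lies next to it, had 2411 and 2495 against 2628 and 2529 and did not pass (log2 fold change 0.07, adjusted p = 0.612).

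Aldh1l2 (ENSMUSG00000020256), the mitochondrial 10-formyltetrahydrofolate dehydrogenase of folate metabolism, had 6013 and 6607 normalized reads in the controls against 4236 and 4373 in the induced cells. The groups stood well apart, and the mean was 1.47-fold lower (log2 fold change -0.55, SE 0.07, limma adjusted p = 0.0226). The call ended without the filter (adjusted p = 0.0523) and without either induced library (up to 0.0647). Its exons overlap those of D10Wsu102e over 14.1% of their length. Its cytosolic counterpart Aldh1l1, also an astrocyte marker and named after its values were seen, had 57.8 and 65.3 against 5.44 and 14.8. Both controls were higher, and the log2 fold change of -2.63 (SE 0.52) missed the threshold (adjusted p = 0.0618), which it passed with voom, with a pseudocount of 5 and without induced replicate 2 (0.0446, 0.0486 and 0.0259). The 6 astrocyte markers in the table summed to 160 and 156 CPM in the controls against 184 and 211 in the induced cells, and their part in this difference was not tested.

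The abundant members Aldh18a1, Aldh9a1 and Aldh2 lay slightly lower in induced cells without passing. Aldh18a1, which makes the proline precursor from glutamate, had 3850 and 4042 normalized reads against 3261 and 3260 (limma adjusted p = 0.0922). Aldh9a1, of carnitine and GABA synthesis, and Aldh2, the mitochondrial acetaldehyde enzyme, had log2 differences of -0.27 and -0.20 (adjusted p = 0.106 and 0.185). Aldh5a1, the succinic semialdehyde dehydrogenase of GABA breakdown, stood the other way with 94.3 and 83.2 against 172 and 146 (adjusted p = 0.0956; named after its values were seen). The retinaldehyde dehydrogenases Aldh1a1 and Aldh1a3 had 0 reads in both controls and at most 9.79 normalized reads in an induced library.

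**Figure D2:**
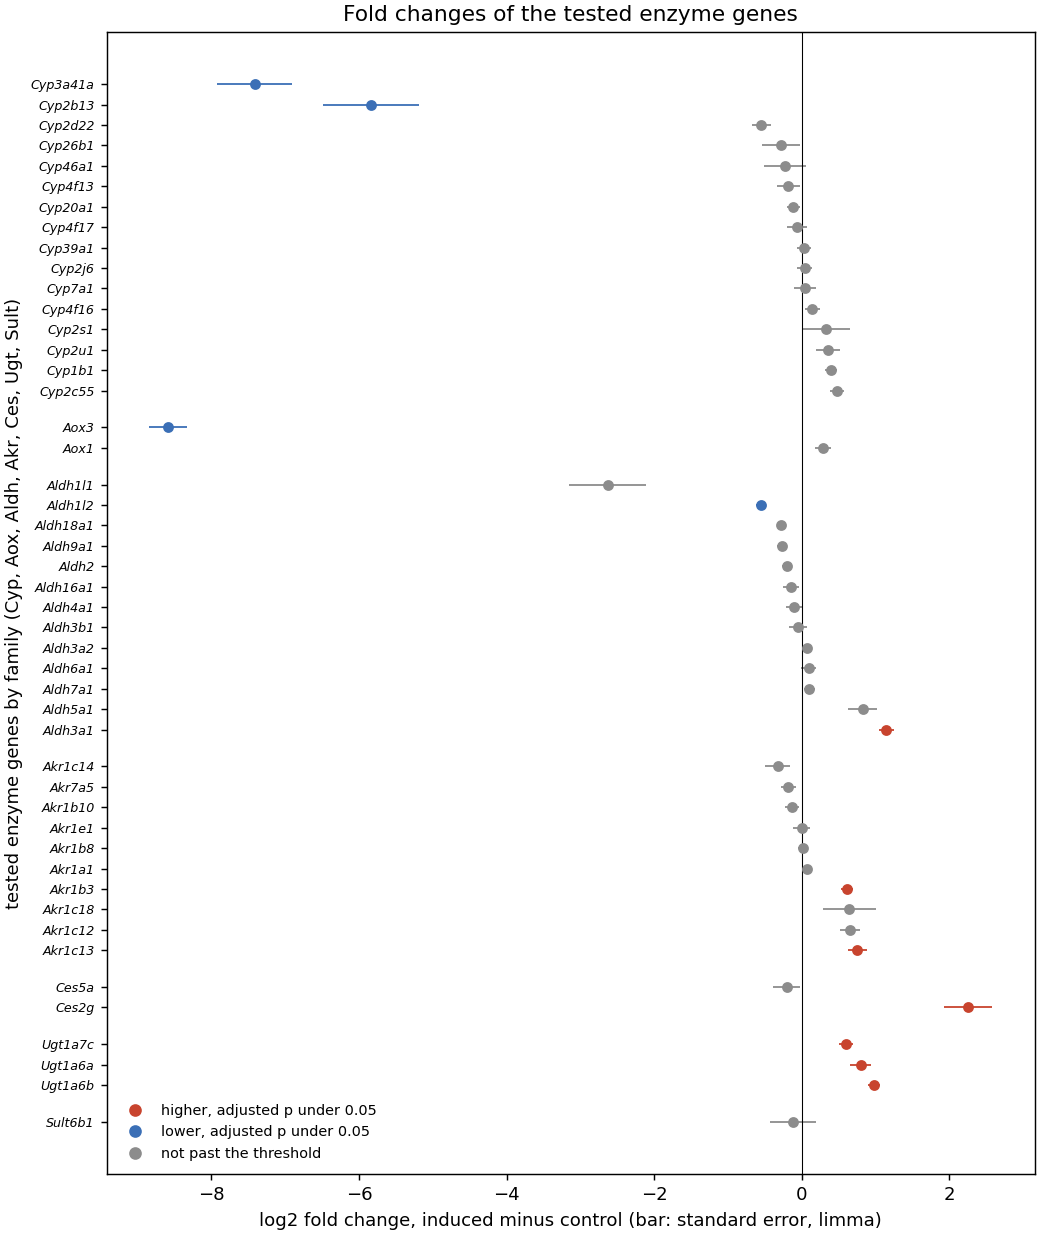
Log2 fold change (induced minus control) of the 47 tested enzyme genes, grouped by family, with bars of 1 SE from limma and colour for the genes past the threshold (red higher, blue lower, grey neither). Most P450 points lie near 0 apart from Cyp3a41a at -7.41 and Cyp2b13 at -5.84, and all 3 tested Ugt1a genes lie above 0.

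Of 11 aldo-keto reductase genes 10 were tested, 2 rose, 0 fell and 8 did not pass, with a median log2 fold change of 0.05. Akr1b3 (ENSMUSG00000001642), the aldose reductase that opens the polyol pathway, had 3918 and 4188 normalized reads in the controls against 5834 and 6595 in the induced cells. The induced libraries were both higher, by 1.53-fold on the means (log2 fold change 0.61, SE 0.08, limma adjusted p = 0.0249). Akr1b3 shares 9.48% of its 50-base stretches with other genes, mainly Gm6644, Gm6736 and Gm12138. Its call ended without the filter and without control replicate 1 or induced replicate 2 (adjusted p up to 0.0657). The related genes that follow it on the chromosome stayed near their controls: Akr1b8, a fibroblast growth factor-regulated reductase, had 3053 and 3051 against 3057 and 3124, and Akr1b10 had a log2 fold change of -0.13 (adjusted p = 0.902 and 0.517). Akr1a1, the aldehyde reductase of ascorbate synthesis and the member with the most reads, had 16615 and 17450 against 18016 and 17856 (adjusted p = 0.541).

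The enzymes of the Akr1c genes reduce carbonyl groups or oxidize hydroxyl groups of steroids. Akr1c13 (ENSMUSG00000021213) had 646 and 728 normalized reads in the controls against 1285 and 1043 in the induced cells, so the groups did not overlap although the induced libraries differed from each other. The means rose from 687 ± 57.5 to 1164 ± 171 (log2 fold change 0.75, SE 0.13, limma adjusted p = 0.0442). Akr1c12, its nearest copy, had 336 and 357 against 599 and 498 (log2 fold change 0.66, adjusted p = 0.0666; named after its values were seen). The transcripts share 24.2% of the 50-base stretches of Akr1c13 and 28.6% of those of Akr1c12, so part of the reads cannot be assigned to 1 of them. The Akr1c13 call ended under 6 of 10 other settings, among them voom, the fit without the filter and the loss of either control or of induced replicate 1 (adjusted p up to 0.121). The next genes of the cluster, Akr1c18 and Akr1c14, had log2 differences of 0.65 and -0.33 (adjusted p = 0.385 and 0.366).

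The starts of Akr1c13 and Akr1c12 are shown because the promoters of these copies are nearly the same letters. Any part of the promoters, or of the shared reads, in their log2 fold changes was not tested. They are identical in 284 of 304 aligned columns (93.4%), whereas Akr1c13 and Akr1c14 share 49.9%, which is not read as likeness, as no unrelated promoters were aligned. The windows are chr13:4190937-4191236, plus strand, for Akr1c13 and chr13:4279350-4279649, minus strand, for Akr1c12 (RefSeq, GRCm38.p6), and they hold no match to the 6 motifs searched.
Akr1c13: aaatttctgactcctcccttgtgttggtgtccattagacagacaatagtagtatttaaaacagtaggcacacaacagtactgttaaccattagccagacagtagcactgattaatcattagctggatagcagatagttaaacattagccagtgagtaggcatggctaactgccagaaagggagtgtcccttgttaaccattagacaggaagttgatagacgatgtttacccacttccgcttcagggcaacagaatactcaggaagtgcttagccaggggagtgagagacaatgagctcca
Akr1c12: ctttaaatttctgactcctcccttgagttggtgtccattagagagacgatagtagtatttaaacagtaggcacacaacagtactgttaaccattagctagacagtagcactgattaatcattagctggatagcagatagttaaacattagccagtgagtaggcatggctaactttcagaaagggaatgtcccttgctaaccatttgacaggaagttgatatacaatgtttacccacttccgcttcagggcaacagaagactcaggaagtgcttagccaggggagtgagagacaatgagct

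Carboxylesterases hydrolyse esters and amides, including prodrugs and lipids. Of 10 genes only Ces2g and Ces5a were tested. Ces2g (ENSMUSG00000031877), of the intestinal type 2 group, had 16.3 and 12.6 normalized reads in the controls against 66.3 and 78.8 in the induced cells. Both induced libraries were well above both controls, a 5.01-fold rise (log2 fold change 2.25, SE 0.33, limma adjusted p = 0.0293). The level is low, and the call ended whichever library was omitted (adjusted p up to 0.112). Ces5a had 375 and 278 against 294 and 267 and overlapped (adjusted p = 0.587).

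The 5 type 1 carboxylesterase genes, the main form in liver, were all below the filter and were not tested with it. Ces1d had 78.0 and 51.6 normalized reads in the controls (62 and 49 reads) and 0 in both induced libraries. With the induced libraries set to the floor of 3 reads each, it was 21.4-fold lower, again not a strict limit. In the fit over all genes without the filter it passed (log2 fold change -6.01, limma adjusted p = 0.025), whereas the other Ces1 genes did not. Ces1f had 32.7 and 33.7 against 5.44 and 3.71, Ces1g 20.1 and 23.2 against 6.52 and 0, and Ces1a 23.9 and 15.8 against 7.61 and 10.2, all named after their values were seen (adjusted p = 0.0891, 0.294 and 0.424 without the filter). Ces1h had 5 reads in 1 control and 0 elsewhere (adjusted p = 0.669). Summed, the Ces1 genes held 4.77 and 3.97 CPM in the controls against 0.598 and 0.425 in the induced cells. Among the other Ces2 genes, Ces2f had 11 reads over both controls against 6 over both induced libraries and Ces2e 0 against 11, all 11 in 1 library (named after their values were seen, as was Ces1h).

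Glucuronosyltransferases join glucuronic acid to phenols, bilirubin, steroids and drugs. The mouse Ugt1a genes lie in 1 cluster in which each has its own first exon and all share the later exons. All 9 Ugt genes of the table are Ugt1a genes, 3 were tested and all 3 rose. Ugt1a6b (ENSMUSG00000090145), a phenol-conjugating form, had 922 and 939 normalized reads in the controls against 1886 and 1774 in the induced cells. The groups stood far apart, with a 1.97-fold rise (log2 fold change 0.97, SE 0.08, limma adjusted p = 0.00698).

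Ugt1a6a (ENSMUSG00000054545) had 685 and 614 normalized reads in the controls against 1281 and 998 in the induced cells, 1.75-fold higher (log2 fold change 0.80, SE 0.14, limma adjusted p = 0.0476). Ugt1a7c (ENSMUSG00000090124) had 773 and 768 against 1099 and 1241, 1.52-fold higher (log2 fold change 0.60, SE 0.10, adjusted p = 0.0366). Neither gene overlapped between groups, but each call ended under 6 of 10 other settings, with adjusted p up to 0.119 for Ugt1a6a, without control replicate 2, and up to 0.152 for Ugt1a7c, without induced replicate 2. The Ugt1a6a call held without induced replicate 2 (0.0299) and ended without each other library, and that of Ugt1a7c ended without each of the 4. The 3 values are not independent: 79.8% of the 50-base stretches of Ugt1a6b, 52.1% of those of Ugt1a6a and 53.6% of those of Ugt1a7c occur in other genes. Exons shared with other genes cover 60.6%, 50.3% and 54.6% of their exon length. The Ugt1a6b stretches are thus shared beyond the common exons, with Ugt1a6a as the main partner. How reads of shared stretches were divided between the genes is not known. The summed level of the 9 genes went from 75.5 and 73.0 CPM to 133 and 126 CPM. This sum escapes that division only if each read was counted once and within the 9 genes, which is not known. Gm20528, an annotated gene whose exons overlap theirs, lies outside the sum.

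Within the cluster, Ugt1a6b took 37.6% and 39.4% of the Ugt1a reads in the controls against 43.2% and 43.1% in the induced cells. Ugt1a7c took 31.6% and 32.2% against 25.2% and 30.1%, and Ugt1a6a 28.0% and 25.8% against 29.4% and 24.2%. These shares depend on how the counting tool, which is not named, divided reads of the shared exons, so no change in make-up is read from them. Ugt1a1, the bilirubin-conjugating form, was below the filter with 11.3 and 11.6 normalized reads against 50.02 and 35.2 (named after its values were seen).

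The start of Ugt1a6a is shown as 1 of the 4 rising genes with an entry in the promoter table and the only 1 of them with a match to a motif searched, the GC box CCGCCC, in capitals 65 bases before the start. The window is chr1:88134559-88134858 on the plus strand of GRCm38.p6.
Ugt1a6a: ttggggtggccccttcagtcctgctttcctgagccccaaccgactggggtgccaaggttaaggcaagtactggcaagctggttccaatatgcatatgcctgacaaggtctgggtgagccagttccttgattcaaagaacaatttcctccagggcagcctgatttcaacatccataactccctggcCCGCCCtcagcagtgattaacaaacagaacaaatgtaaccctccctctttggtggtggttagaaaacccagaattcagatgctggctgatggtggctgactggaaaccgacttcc

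**Figure D3:**
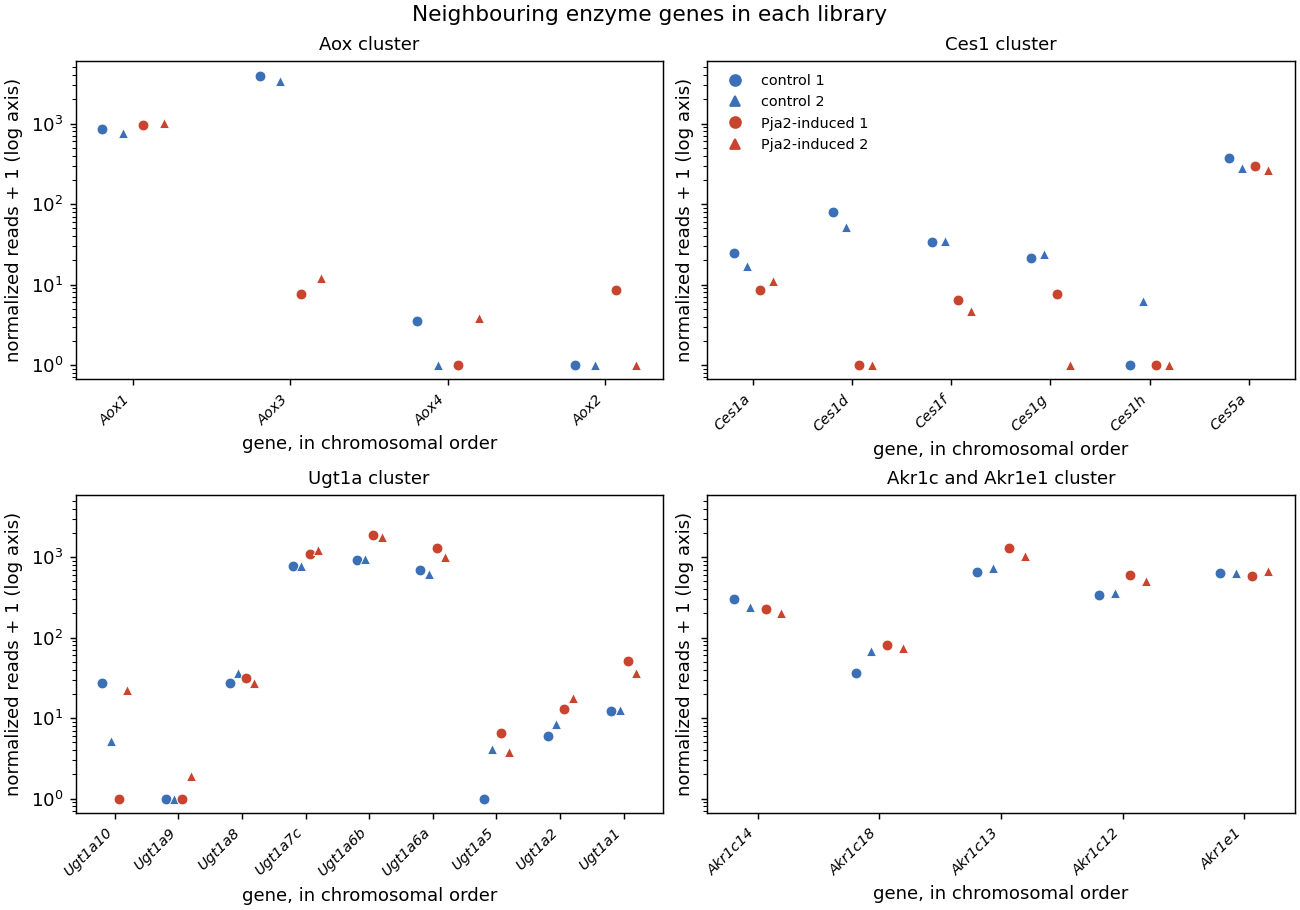
Normalized reads plus 1 (log axis) in each of the 4 libraries for genes of 4 clusters, in chromosomal order; blue is control and red induced, with circles for replicate 1 and triangles for replicate 2. Aox3 is low in both induced libraries beside Aox1, whose points lie close together, Ces1d is at 0 reads in both induced libraries, and the Ugt1a genes with the most reads, Ugt1a7c, Ugt1a6b and Ugt1a6a, are higher in both.

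Only Sult6b1 of the 4 sulfotransferase genes was tested. It had 46.5 and 50.6 normalized reads in the controls against 37.0 and 53.8 in the induced cells, and the groups overlapped (log2 fold change -0.12, limma adjusted p = 0.868). The other three, among them the phenol sulfotransferase gene Sult1a1, had at most 31.4 normalized reads in any library.

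Promoters of 71 of the 89 genes were found in the RefSeq table. The motifs searched on both strands were TNGCGTG, the core bound by the aryl hydrocarbon receptor, TGACNNNGC, the core of the antioxidant response element, TGACGTCA, the cAMP response element, TATAAA, the TATA box, CCGCCC, the GC box, and CACGTG, the E-box. Matches of different motifs may overlap in part. On the first window that the table lists for each gene, the receptor core was found in 4 of the 71 genes, the antioxidant core in 3, the cAMP element in 0, TATAAA in 10, the GC box in 24 and the E-box in 5. Over the first windows of all 27025 genes of the table the shares were 5.12%, 12.5%, 1.88%, 14.2%, 35.9% and 7.24%. A further window of Cyp4f14 also holds the antioxidant core, which makes 4 genes when all windows are counted. The 4 rising genes with an entry (Akr1c13, Ces2g, Ugt1a6a and Ugt1a7c) held 1 GC box and no other match, which says only that these letters are not in these windows.

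In CPM per kilobase of exon, the order of levels placed Akr1a1 first, at 190 (controls) and 199 (induced), followed by Akr1b8 at 62.6 and 63.0. Cyp1b1 stood at 39.1 and 50.9, Aldh9a1 at 35.1 and 29.0 and Aldh3a1 at 28.5 and 62.6 on the same scale, so Aldh3a1 moved from below Cyp1b1 to above it. Aox3 went from 16.0 to 0.04. On the mean of both groups the lowest tested member was Cyp2s1, at 0.19 and 0.24, while Ces2g was lower in the controls at 0.12 and Cyp3a41a, Cyp2b13, Aox3 and Aldh1l1 were lower in the induced cells.

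The genes that surround the 11 called members were examined for shared movement. Taking the 3 protein-coding genes of the table on each side, 32 were not enzymes of these families, 29 of them were tested, 1 rose and 1 fell. Over all tested genes 2.08% rose and 1.34% fell. The one that rose was Slc47a1, the third gene after Aldh3a1, an exporter of organic cations. It had 2720 and 1232 normalized reads in the controls against 7427 and 7175 in the induced cells (log2 fold change 1.99, SE 0.34, limma adjusted p = 0.0417), and its call ended without the filter or without either induced library (up to 0.0965). The controls were far apart from each other but both lay below both induced libraries. The one that fell was Appl2, 2 genes from Aldh1l2, with a log2 fold change of -0.57 (adjusted p = 0.0280).

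The partners of these enzymes were counted in 6 further lists. These counts stand beside 2.08% of all tested genes that rose and 1.34% that fell, with a median of 0.00. Of 15 tested receptors and factors that sense xenobiotics and steroids, 0 rose, 0 fell and the median log2 fold change was 0.07. Ahr, the aryl hydrocarbon receptor, had a log2 fold change of 0.28 and Nfe2l2, the antioxidant response factor, of 0.19 (limma adjusted p = 0.171 and 0.172). Tiparp, a target of the aryl hydrocarbon receptor, had a log2 fold change of 0.19 (adjusted p = 0.257).

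Of 31 tested electron donors and cofactor makers 2 rose (6.45%), 1 fell (3.23%) and the median was 0.01. The shares over all tested genes were 2.08% and 1.34%. Cpox, a heme synthesis enzyme, had 5193 and 5436 normalized reads in the controls against 9976 and 10034 in the induced cells, a 1.88-fold rise (limma adjusted p = 0.00421). Papss2, which makes the sulfate donor of sulfotransferases, had 106 and 88.5 against 245 and 230, a 2.45-fold rise (adjusted p = 0.0260). Ugp2, which makes the UDP-glucose from which the glucuronic acid donor is formed, fell by 0.40 on the log2 scale, from 2676 and 2741 to 2045 and 2056 (adjusted p = 0.0384). In each of these 3 genes the groups stood clear of each other. Both the Papss2 and the Ugp2 call ended without the filter, that of Papss2 also without control replicate 2 or either induced library (adjusted p up to 0.0897) and that of Ugp2 without any 1 of the libraries (up to 0.144). Por, the reductase that feeds electrons to all microsomal P450s, and Xdh, the molybdenum enzyme most related to the aldehyde oxidases, had log2 differences of -0.18 and 0.08 (adjusted p = 0.266 and 0.516).

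Of 36 tested enzymes of other phase 1 and phase 2 families 2 rose (5.56%) and 0 fell, with a median of 0.01. Among all tested genes 2.08% rose and 1.34% fell. Nqo1, the quinone reductase, had 4274 and 4709 normalized reads in the controls against 7945 and 8884 in the induced cells. Ephx1, the microsomal epoxide hydrolase, had 6843 and 6866 against 9743 and 10064. They rose 1.87-fold and 1.44-fold, with the groups apart (limma adjusted p = 0.01003 and 0.0139), and Ephx1 lost its call without induced replicate 2 (0.0552). Gstp1 and Maoa, the most abundant of the rest, had log2 differences of 0.24 and -0.32 (adjusted p = 0.184 and 0.113).

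None of the 17 tested steroid dehydrogenases, reductases and carriers was called, and 13 lay below 0 with a median of -0.16. Among all 13276 tested genes 3.42% were called and 6585 lay below 0. Stard4, a carrier of cholesterol within the cell, had a log2 fold change of -0.31 (limma adjusted p = 0.0804). None of 13 retinoid genes was called either (median -0.05), where Rara and Rarg, retinoic acid receptors, had 0.24 and -0.05 (adjusted p = 0.178 and 0.773). Of 13 tested drug and conjugate transporters 1, Slc47a1, rose (7.69%, against 2.08% of all tested genes) and 0 fell, with a median of 0.30. Abcc1 and Abcc5, exporters of glutathione and glucuronide conjugates and of nucleotides, had log2 differences of 0.45 and 0.30 (adjusted p = 0.0524 and 0.0625).

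**Figure D4:**
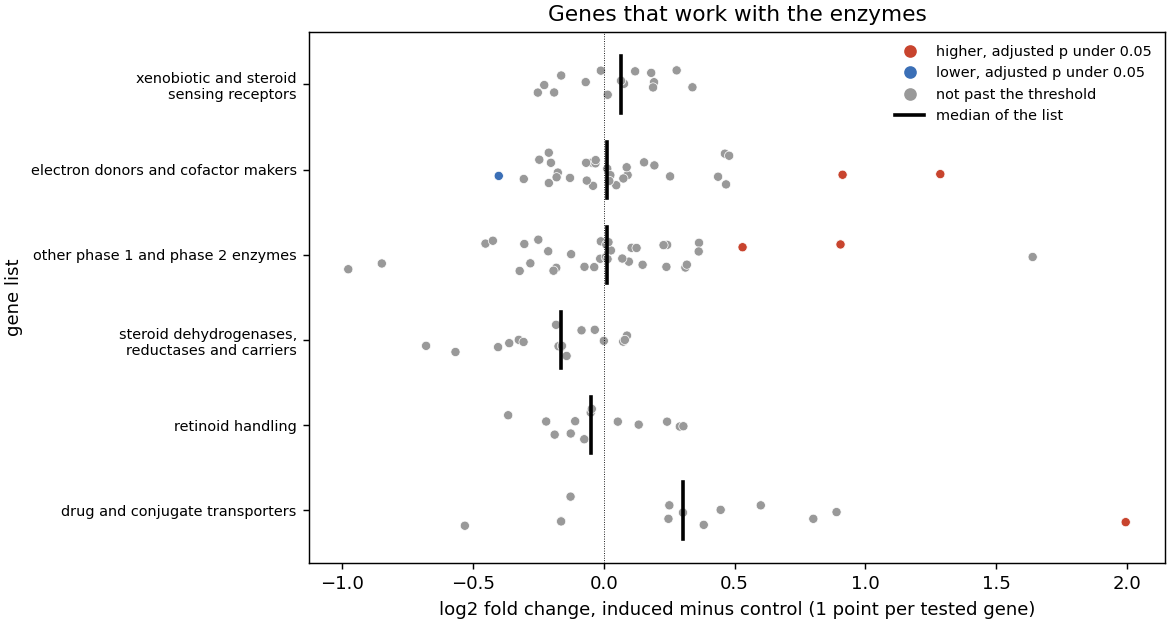
Log2 fold change (induced minus control) of every tested gene in the 6 lists of partner genes, 1 point per gene, red or blue where a gene passed the threshold as higher or lower and grey where it did not, with a black line at each list's median. Slc47a1 at 1.99 and Papss2 at 1.29 differ most among the genes past the threshold, while the list medians run from -0.16 to 0.30.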

How the data were processed

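The 4 libraries were deposited as log2 values, 1 column each, over 24689 mouse genes with Ensembl identifiers. The submitters' processing notes name HISAT, Cufflinks and mm9; for the counting tool and the scaling, no source used here gives a name. After undoing the log2 and the added 1, each library's values were 100% whole multiples of a single step (tolerance 0.01), so the deposited values are log2(normalized read count + 1) and whole reads could be recovered.

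Genes whose mean over the 4 libraries reached 1 CPM were fitted with limma 3.58.1 (R 4.3.3, variance trend, no covariate, two-sided), with Benjamini-Hochberg adjustment over 13276 genes, tested on simulated data first. limma voom on the recovered reads was the count-based alternative. Others were a filter of 5 CPM or none, a pseudocount of 5, scaling by totals, a replicate block and each library left out.

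The members and lists were chosen with earlier results of these data known. Named are the called members, the 4 of highest reads per family, the best expressed gene of 4 P450 subfamilies, members at 0 in both libraries of 1 group with at least 10 reads in each library of the other, and called or abundant list genes, of which 1 is not reported here. Chi-square per gene between replicates was 16.9 and 12.9, so none is a copy. Shared 50-base stretches and exon overlap come from GENCODE transcripts of GRCm38, which may differ from the models that were counted, and without strand overlapping genes cannot be told apart.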

Additional observations from a re-analysis of the deposited data

How the results depend on the processing

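Of the 11 called enzyme genes, Aox3, Cyp3a41a, Aldh3a1 and Ugt1a6b passed the threshold in every other setting in which they were tested. The numbers of higher and lower genes among all tested were 100 and 59 without the expression filter, where 24689 genes share the adjustment, against 276 and 178 with it, and they ran from 113 to 204 and from 78 to 136 when 1 library was left out. Of the enzyme genes 2 were higher without the filter and 3 to 4 with a library left out, against 7, and 2 were lower with the filter of 5 CPM, which tests fewer genes, against 4. Leave-one-out fits have fewer samples, and a further cause was not tested.

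A replicate block gave 157 higher and 104 lower genes among all tested, and 4 higher and 4 lower enzyme genes. It ended the calls of Akr1c13, Ces2g, Ugt1a7c and Ugp2. The labels state no pairing, only 2 pairs exist, and same-numbered libraries had a correlation of -0.10 of their deviations from the group means.

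Some uncalled log2 fold changes crossed 0 with a library left out, namely those of Ces5a (-0.42 to 0.0103), Cyp26b1 (-0.60 to 0.0416), Cyp39a1 (-0.0651 to 0.12), Cyp7a1 (-0.00551 to 0.0870), Sult6b1 (-0.38 to 0.15) and Rarg (-0.11 to 0.0200). At 25.8 to 35.3 reads per CPM, 42 of the 89 enzyme genes were left out by the filter of 1 CPM, of which Ces1d passed when the filter was dropped.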
